A study of Homo sapiens with 4 samples.

Results

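The genes described here encode the 8 subunits of the cytosolic chaperonin CCT (chaperonin containing TCP1), namely TCP1, CCT2, CCT3, CCT4, CCT5, CCT6A, CCT7 and CCT8, and the mitochondrial chaperonin pair HSPD1 and HSPE1. They were taken by gene symbol, and all 10 were found among the 35371 symbols of the deposited table. The cells were A2780, an established human line labelled as ovarian cancer, grown in 2D culture. One group was treated with GD-07 (2 libraries), which is named a Myc inhibitor in the series text, and the other was the control (2 libraries). The series text gives the controls a vehicle, whereas their own labels give treatment as none, and neither dose nor duration is stated in the labels. Polyadenylated RNA was sequenced and deposited as TPM, a transcript's share of its library scaled to a fixed total, which corrects for transcript length but keeps no sequencing depth. Depth is therefore unknown and counting intervals could not be computed. Nothing in the labels says that replicates were separate cultures, and the p-values below reflect the spread among the 4 libraries alone, technical or otherwise. The test used combines each gene's own spread with that of other genes of similar level.

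Chaperonins are barrel-shaped machines that enclose a protein and let it fold with the use of ATP. CCT is built of stacked rings in which each of its 8 related subunits holds a fixed place, and it is required to fold actin and tubulin. HSPD1 forms the barrel in the mitochondrial matrix and HSPE1 is its lid. Chaperonin genes are often listed among genes that MYC activates, and the series concerns a MYC inhibitor, so the comparison asks whether their mRNA levels differed with GD-07.

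None of the 10 chaperonin genes changed at an adjusted p under 0.05 (limma on log2(TPM + 1), two-sided, adjusted by Benjamini-Hochberg over the 13063 genes averaging 1 TPM or more). Among all tested genes 5.21% passed, 3.19% lower and 2.02% higher. At an unadjusted p under 0.05 limma called 1 of the 10, CCT5, against 24.8% of all tested genes. All 10 were kept by the filter on low values. Of these, 7 had a lower and 3 a higher fitted value with GD-07, and the median log2 fold change was -0.10, beside -0.04 for all tested genes. The GD-07 libraries lay wholly below the controls for 3 members (CCT5, CCT3 and HSPD1) and wholly above for 1 (CCT6A), whereas 30.5% of all tested genes lay wholly below and 25.3% wholly above. An exact two-sided permutation test of 2 libraries against 2 cannot give a p below 0.33, so none was run. With no filter on low values limma called none of 26773 genes, so each call below holds among the kept genes only. In these bulk libraries a lower level in every cell cannot be told apart from a lower level in some of them.

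**Figure D1:**
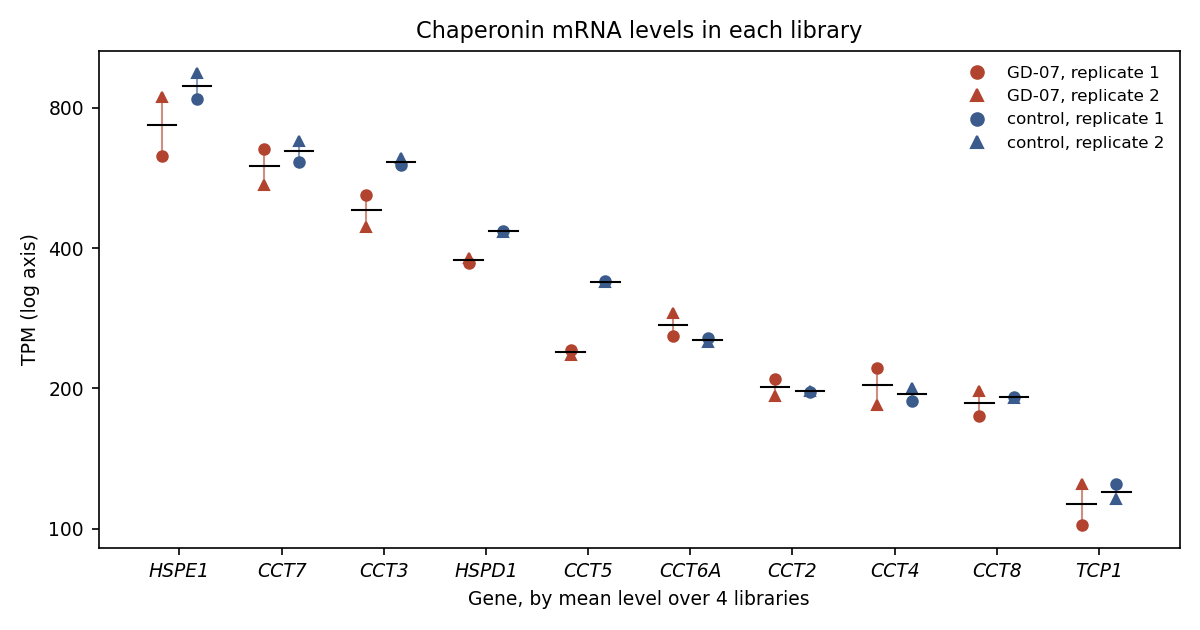
TPM (log axis) of each chaperonin gene in each library, with GD-07 in red to the left of control in blue, circles for replicate 1, triangles for replicate 2 and a black bar at the group mean. CCT5, CCT3 and HSPD1 have both GD-07 points below both control points, and for TCP1, CCT2, CCT4, CCT7 and CCT8 the groups overlap.

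The genes were abundant, each with a mean level above that of 90.2% to 98.7% of the kept genes. HSPE1 was highest, at 631 to 949 TPM over the 4 libraries, followed by CCT7 (546 to 680 TPM) and CCT3 (445 to 626 TPM), neighbours whose ranges overlapped. HSPD1 came next at 372 to 435 TPM, below the lowest CCT3 value and above the highest CCT5 value. CCT5 (236 to 340 TPM) and CCT6A (252 to 290 TPM) overlapped. CCT2, CCT4 and CCT8 lay together between 174 and 222 TPM. TCP1, which gives the complex its name, was lowest in every library at 102 to 125 TPM and overlapped with none. The highest CCT subunit exceeded the lowest 6.41-fold and 4.37-fold in the GD-07 libraries and 4.92-fold and 5.88-fold in the controls.

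CCT5, the epsilon subunit, was the furthest from its control level. It stood at 242 and 236 TPM in the GD-07 libraries, against 340 and 339 TPM in the controls. Both pairs were tight and did not overlap. In log2(TPM + 1), replicate 2 minus replicate 1 was -0.035 with GD-07 and -0.0040 in the controls. The limma standard error below exceeds these gaps, being drawn partly from other genes of similar level. The mean with GD-07 was 70.5% of the control mean, and the log2 fold change was -0.50 ± 0.14 (limma standard error, n = 2 each, 95% interval -0.82 to -0.19, limma adjusted p = 0.0689), which missed the threshold. A lower p was found for 1074 of the 13063 genes. CCT5 (ENSG00000150753) is a plus-strand gene of chromosome 5, spanning 10249921 to 10266412 (GRCh38). The limma adjusted p was 0.0167 when GD-07 replicate 1 was left out and 0.017 when GD-07 replicate 2 was, where the controls supply all of the spread, and 0.468 and 0.34 without control replicate 1 or 2. The log2 fold change itself stayed between -0.52 and -0.48 in these 4 fits.

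CCT3, the gamma subunit, was measured at 521 and 445 TPM with GD-07 and at 602 and 626 TPM in the controls. The groups did not overlap, but the GD-07 replicates differed from each other by more than the controls did. The log2 fold change of CCT3 was -0.35 ± 0.16 (limma standard error, n = 2 each, 95% interval -0.70 to 0.0027, adjusted p = 0.204). It passed without GD-07 replicate 1 (log2 fold change -0.46, limma adjusted p = 0.0326) and not without GD-07 replicate 2 (-0.24, 0.322). CCT3 (ENSG00000163468) spans 156308968 to 156367873 on the minus strand of chromosome 1 (GRCh38). The promoter stretch below is credited to RefSeq (GRCh38.p14, chr1:156338360-156338389, minus strand). It is shown because CCT3 had both GD-07 libraries below both controls and holds a CCAAT box, found for 4 members. The other members with CCAAT (TCP1, CCT2 and CCT8) had overlapping groups. No CCAAT was found for CCT5 or HSPD1, whose GD-07 libraries also lay below both controls. Capitals mark a GC box (GGGCGG) and a CCAAT box read on the other strand.
CCT3: ggGGGCGGgactaaggctgtcaATTGGtct

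CCT6A, the zeta subunit, was the only member whose GD-07 libraries both lay above the controls. It reached 259 and 290 TPM with GD-07, compared with 257 and 252 TPM in the controls. The lower GD-07 value was within a few TPM of the higher control. The log2 fold change of CCT6A was 0.11 ± 0.14 (limma standard error, n = 2 each, 95% interval -0.22 to 0.43, adjusted p = 0.687), so no difference was resolved.

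The other 5 subunits had overlapping groups. TCP1, the alpha subunit, was at 102 and 125 TPM with GD-07 and at 125 and 116 TPM in the controls. CCT2 (beta) was at 210 and 193 TPM with GD-07 and at 197 and 198 TPM in the controls. CCT4 (delta) was at 222 and 185 TPM with GD-07 and at 188 and 201 TPM in the controls. In each of these the replicates of GD-07 fell on either side of at least 1 control value. CCT7 (eta) was at 653 and 546 TPM with GD-07 and at 614 and 680 TPM in the controls. CCT8 (theta) was at 174 and 197 TPM with GD-07 and at 192 and 191 TPM in the controls. The log2 fold changes of these 5 ranged from -0.11 (CCT7) to 0.06 (CCT4), with limma adjusted p between 0.708 and 0.927. Their 95% intervals together ran from -0.48 (CCT7) to 0.40 (CCT4). The GD-07 replicates were further apart than the control replicates for each of the 8 subunits, and CCT2, CCT3, CCT4, CCT5 and CCT7 were lower in GD-07 replicate 2 whereas TCP1, CCT6A and CCT8 were higher there.

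**Figure D2:**
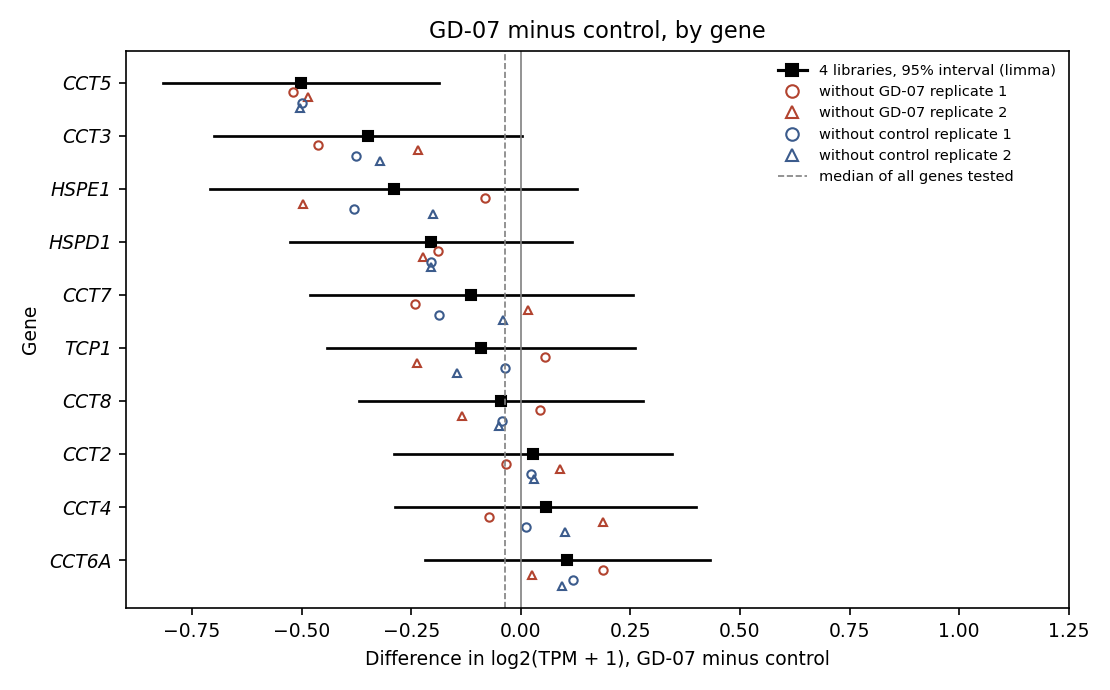
Difference in log2(TPM + 1), GD-07 minus control, for each gene (black squares) with limma's 95% interval, and below each the value when 1 library is left out (open symbols, set lower only to keep them apart). The CCT5 values stay together near -0.50, whereas those of HSPE1 run from -0.50 to -0.08, and TCP1, CCT2, CCT4, CCT7 and CCT8 have values on both sides of 0.

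A share of the subunits' summed mRNA does not depend on how a library is scaled. Each subunit was therefore also expressed as a percentage of the summed TPM of all 8. Such shares describe mRNA and not the make-up of the complex. CCT5 made up 10.2% and 10.7% of that sum with GD-07, against 13.5% and 13.0% in the controls. CCT3 made up 21.9% and 20.1% with GD-07, against 23.9% and 24.1% in the controls. Both shares were lower in each GD-07 library than in each control. CCT2 (8.80% and 8.69% against 7.83% and 7.60%) and CCT4 (9.30% and 8.33% against 7.50% and 7.71%) had higher shares with GD-07, as did CCT6A (10.9% and 13.1% against 10.2% and 9.69%). Shares of a fixed whole must rise elsewhere when those of CCT5 and CCT3 are lower. The TPM of CCT2 and of CCT4 overlapped between the groups, so no increase in level was resolved beside their higher shares. For CCT7, CCT8 and TCP1 the shares overlapped. The ratio of CCT5 to CCT6A was 0.936 and 0.816 with GD-07 and 1.32 and 1.34 in the controls. CCT5 was thus below CCT6A with GD-07 and above it in the controls. These subunits have the lowest and highest log2 fold changes of the 8, so the pair is the most extreme one, and neither passed. The summed level of the 8 subunits was 2382 and 2216 TPM with GD-07 and 2514 and 2601 TPM in the controls.

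**Figure D3:**
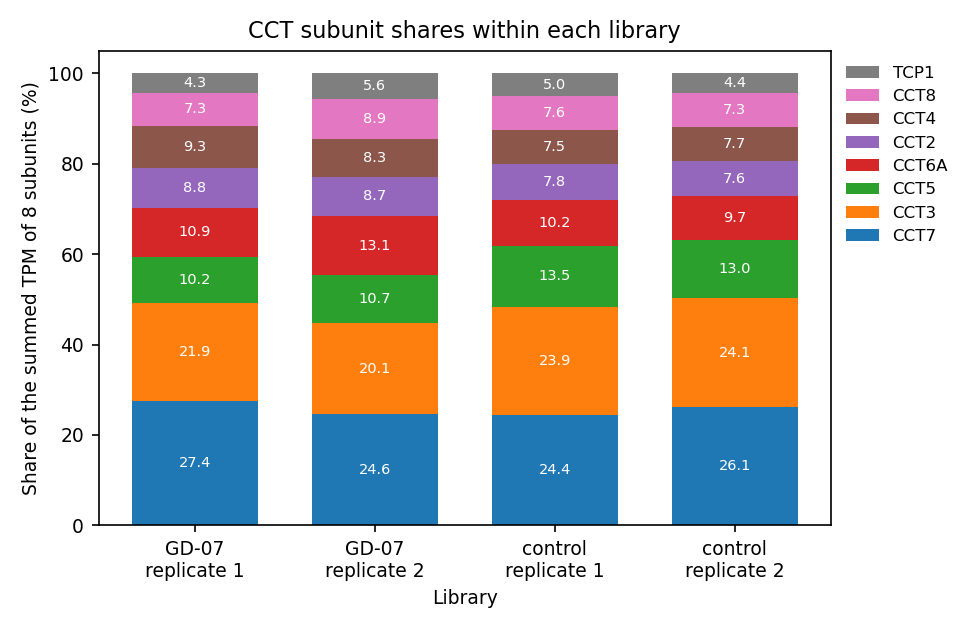
Share of each CCT subunit in the summed TPM of the 8 subunits, in percent, with GD-07 libraries left of controls. CCT5 (green) takes 10.2% and 10.7% in the GD-07 libraries and 13.5% and 13.0% in the controls, and CCT7 is the most abundant subunit in all 4.

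HSPD1 and HSPE1 are neighbours on chromosome 2, transcribed in opposite directions. HSPD1 (ENSG00000144381) runs from 197486581 to 197516737 on the minus strand and HSPE1 (ENSG00000115541) from 197499994 to 197503457 on the plus strand (GENCODE 29, GRCh38). The 2 spans overlap and no strand setting is stated, so reads from the overlap cannot be told apart. In RefSeq the HSPE1 start lies 105 and 539 bases from 2 annotated starts of HSPD1. The promoter windows of both genes share a CACGTG and also a GGGCGG (197500277 to 197500282). A pair of 30-base sites from RefSeq (GRCh38.p14) is shown, namely the shared CACGTG site and the densest match to a heat shock element. The first, at chr2:197500345-197500374 on the plus strand, holds CACGTG (capitals), the E-box that MYC with MAX is known to bind. The second, at chr2:197500059-197500088 on the minus strand, holds overlapping matches to TTCNNGAA and GAANNTTC (capitals), the repeat that heat shock factors recognise.
HSPD1 and HSPE1 E-box: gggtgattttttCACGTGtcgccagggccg
HSPD1 heat shock element: attTTCTGGAAAGTTCTGGAAccgagcgag

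HSPD1 was at 372 and 381 TPM with GD-07 and at 435 and 434 TPM in the controls. Replicates agreed closely and the groups were separate, with the GD-07 mean at 86.7% of control. The log2 fold change was -0.21 ± 0.14 (limma standard error, n = 2 each, 95% interval -0.53 to 0.12, adjusted p = 0.405), so it did not pass.

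HSPE1 was at 631 and 842 TPM with GD-07 and at 838 and 949 TPM in the controls. GD-07 replicate 1 was below both controls, while GD-07 replicate 2 lay between them. The log2 fold change was -0.29 ± 0.18 (limma standard error, n = 2 each, 95% interval -0.71 to 0.13, adjusted p = 0.365). Without GD-07 replicate 2 it was -0.50, and without GD-07 replicate 1 it was -0.08, fits in which the controls supply all of the spread. Mitochondrially encoded transcripts, which also differed between the GD-07 libraries, made up 2.52% of TPM in GD-07 replicate 1 and 6.52% in its partner, beside 4.36% and 3.72% for the controls, and their part in the HSPE1 gap was not tested. The ratio of HSPE1 to HSPD1 was 1.70 and 2.21 with GD-07 and 1.93 and 2.18 in the controls, an overlap of the groups.

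Promoter windows of 9 members were found in RefSeq (12 windows, 250 bases before to 50 after a start). CCT6A was not among them. CACGTG (a palindrome) was found for 2 members, HSPD1 and HSPE1, at the same site, and in 7.26% of all 35116 windows. CCAAT, read on both strands, was found for 4 members (TCP1, CCT2, CCT3 and CCT8) and in 34.6% of all windows. GGGCGG was found for 7 members (45.0% of windows) and CGGAAG, a core that ETS factors recognise, for 6 (19.5%), both read on both strands. TTCNNGAA or GAANNTTC, palindromic and able to overlap each other, was found for TCP1, CCT2, CCT4 and HSPD1 (7.74% and 6.77% of windows, in that order of motif). In the CCT5 window only CGGAAG was found. A member was counted if any of its windows held the motif, whereas the percentages count single windows. The member counts and the percentages are therefore not directly comparable. These matches describe letters in the window and say nothing of binding.

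Chaperonin genes have processed copies that can take or give reads, so the related entries were checked. Related entries never exceeded 8.98% of their member's TPM (HSPE1), and for all but HSPE1 and CCT6A they stayed under 1%. With each member summed with its related entries, still none of the 10 passed in limma. HSPE1P2, a processed pseudogene (chromosome 14, plus strand, 63601509 to 63601814), was at 14.6 and 13.8 TPM with GD-07 and at 30.0 and 25.8 TPM in the controls. Its log2 fold change of -0.92 ± 0.17 passed (limma adjusted p = 0.0263), though not without control replicate 1 (0.109). It lies within WDR89, outside that gene's exons and on the opposite strand, and WDR89 was at 6.06 and 6.72 TPM with GD-07 and at 7.63 and 7.53 TPM in the controls. Since copies are nearly alike, the split of reads between HSPE1 and HSPE1P2 is uncertain. HSPE1P3 and HSPE1P4, by contrast, were at 12.7 and 10.9 TPM and at 11.3 and 9.24 TPM with GD-07, against 8.43 and 10.5 TPM and 7.12 and 9.17 TPM in the controls, and did not pass. The read-through HSPE1-MOB4 was at 15.1 and 12.0 TPM with GD-07 and at 14.3 and 10.4 TPM in the controls. The testis-type paralogue CCT6B was below 1 TPM in all 4 libraries, as was CCT8L2. By annotated span 5 members overlap another coding gene (TCP1 with ACAT2, CCT3 with TSACC, CCT4 with COMMD1, and HSPD1 with HSPE1), so reads there may be split.

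Prefoldin delivers unfolded actin and tubulin to CCT, phosducin-like proteins bind it, and the tubulin cofactors act on tubulin that CCT has released. Of the 17 kept genes of these groups, prefoldin-like subunits included, none passed, beside 5.21% of all tested genes, and 1 had an unadjusted p under 0.05 in limma, beside 24.8%. Their median log2 fold change was 0.01. PDCL3, a phosducin-like protein that binds CCT, was at 42.4 and 40.4 TPM with GD-07, against 55.2 and 61.2 TPM in the controls (limma adjusted p = 0.089). PFDN5, a prefoldin subunit also known for binding MYC, was at 405 and 359 TPM with GD-07, against 291 and 330 TPM in the controls (limma adjusted p = 0.258). MKKS and BBS12, chaperonin-like proteins that assemble the BBSome, had log2 fold changes of 0.55 and 0.44 and did not pass either (limma adjusted p = 0.114 and 0.308).

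Among 27 kept genes of proteins that CCT is known to fold, 2 rose in mRNA level, 2 fell and 23 did not pass. That is 14.8% called, beside 5.21% of all tested genes. ACTB, beta-actin, rose to 353 and 262 TPM with GD-07, against 124 and 179 TPM in the controls, and TUBB3, a beta-tubulin, rose to 15.2 and 12.7 TPM, against 6.97 and 6.89 TPM (limma adjusted p = 0.0332 and 0.0339). GNB1, a G protein beta subunit, fell to 124 and 118 TPM with GD-07, against 290 and 229 TPM in the controls (limma adjusted p = 0.0194). TUBG1, gamma-tubulin, which was named after its values were seen, fell to 89.8 and 90.8 TPM with GD-07, against 146 and 143 TPM in the controls (limma adjusted p = 0.0326). The called clients thus moved in both directions, as did the called tubulins (TUBB3 higher, TUBG1 lower), and the list median was -0.13. The call of ACTB ended without control replicate 1 (limma adjusted p = 0.137), under median-ratio scaling (0.0551) and without limma's trend (0.065), and that of TUBG1 without the trend (0.0698). Those of TUBB3 and TUBG1 ended without control replicate 1 (0.0836 and 0.19) and without control replicate 2 (0.0609 and 0.0986), and that of TUBB3 also without GD-07 replicate 1 (0.0504).

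Of 20 genes listed as mitochondrial chaperones and proteases, 2 rose, 4 fell and 14 did not pass, with a median log2 fold change of -0.19. That is 30.0% called, beside 5.21% of all tested genes. The list includes ATF5, which is neither a chaperone nor a protease. HSPA9, the mitochondrial Hsp70 that delivers proteins to HSPD1, was at 445 and 373 TPM with GD-07 and at 410 and 459 TPM in the controls, and did not pass (limma adjusted p = 0.77). CLPB, a disaggregase, fell to 9.53 and 8.31 TPM with GD-07, against 17.4 and 17.8 TPM in the controls (limma adjusted p = 0.0307). GRPEL1 and DNAJA3, the exchange factor and J-protein of HSPA9, and TRAP1, the mitochondrial Hsp90, also passed as lower, with log2 fold changes of -0.63, -0.67 and -0.60, and were named after their values were seen (limma adjusted p = 0.0467, 0.0418 and 0.0487). HSCB, a J-protein of iron-sulfur cluster assembly, rose to 41.2 and 44.9 TPM with GD-07, against 21.3 and 22.1 TPM in the controls, and ATF5, a transcription factor of the mitochondrial stress response, rose to 99.7 and 110 TPM, against 48.8 and 46.2 TPM (limma adjusted p = 0.0205 and 0.0127). The 4 calls of lower genes ended without control replicate 1 (limma adjusted p from 0.0792 to 0.423) and without control replicate 2 (0.0640 to 0.15), those of GRPEL1, DNAJA3 and TRAP1 also without limma's trend, with median-ratio or quantile scaling, and after rescaling without mitochondrial transcripts and the top entry. A pseudocount of 0.1 TPM ended those of GRPEL1 and TRAP1 (limma adjusted p = 0.0523 and 0.0536).

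Among the 28 kept genes listed as cytosolic heat shock chaperones 1 fell and 27 did not pass (3.57%, beside 5.21% of all tested genes). Their median log2 fold change was -0.13, and the list includes the heat shock factors HSF1 and HSF2, which are not chaperones. FKBP4, an Hsp90 co-chaperone, fell to 83.3 and 77.5 TPM with GD-07, against 130 and 128 TPM in the controls (limma adjusted p = 0.0332). That call ended under median-ratio scaling (limma adjusted p = 0.0514), without limma's trend (0.0701) and without control replicate 1 (0.176) or 2 (0.0981).

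**Figure D4:**
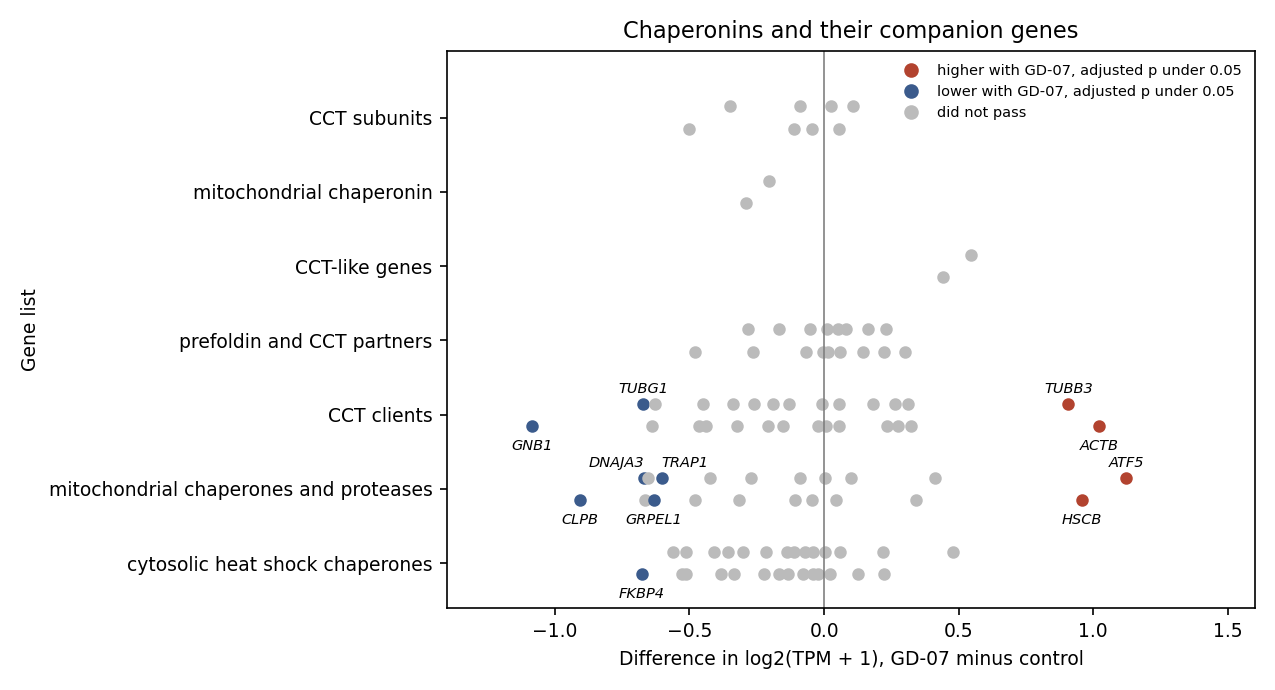
Difference in log2(TPM + 1), GD-07 minus control, of each kept gene by list (rows, with vertical offset only to keep points apart), red for genes higher and blue for genes lower at an adjusted p under 0.05 and grey otherwise. All chaperonin and prefoldin points are grey, and coloured points sit among the clients (4 of 27), the mitochondrial chaperones and proteases (6 of 20) and the cytosolic chaperones (1 of 28).

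Profiles over the 4 libraries were compared by Euclidean distance between centred log2(TPM + 1) values, among 5533 non-member genes averaging 20 TPM or more. Nearest to the mean of the 8 CCT subunits were, among others, CDKN3 (distance 0.0182), FBXL5 (0.0324), MIS18A (0.0326) and METTL5 (0.0357). The subunits themselves lay from 0.154 (CCT2) to 0.388 (CCT5) from that mean, HSPD1 at 0.104 and HSPE1 at 0.380. The nearest genes were picked as the smallest of 5533 distances and the subunits were not picked. Their distances therefore cannot be compared. Nearest to the mean of HSPD1 and HSPE1 was TIMM23 (0.0151), a subunit of the mitochondrial inner membrane translocase, at 112 and 131 TPM with GD-07 and at 141 and 150 TPM in the controls. With 4 libraries these distances are descriptions only.

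The libraries differed in composition. Column sums ran from 912781 to 918646 TPM, and GD-07 replicate 2 held the highest share of mitochondrial transcripts and 4.25% of TPM in its single most abundant entry by mean, where GD-07 replicate 1 had 0.831% and the controls 1.16% and 1.01%. Of 9 epithelial and ovarian markers, 2 passed the filter on low values (KRT18 and EPCAM), PAX8 was below 1 TPM in every library, and the list summed to 10.3 and 11.1 TPM with GD-07 and to 7.56 and 8.10 TPM in the controls, so the labelled tissue is not marked by these genes. Among markers of other cell types, the fibroblast collagen gene COL1A1 was at 17.9 and 30.0 TPM with GD-07 and at 39.0 and 31.1 TPM in the controls, COL3A1 was at 2.38 and 3.38 TPM with GD-07 and at 6.08 and 4.54 TPM in the controls, and the T cell gene CD3E was listed at 0 in all 4. Their part in the chaperonin values was not tested.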

How the data were processed

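The authors deposited TPM values per gene symbol for 4 libraries. The build GRCh38 and the tools limma 3.60.4, Subread and kallisto appear in the submitters' processing notes, while the role of each is not given in the sources used here. Per the labels' protocols, mRNA was enriched with oligo(dT) beads. TPM is relative to each library's total, so a change shared by all transcripts cannot be seen.

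Groups came from the sample titles. Genes averaging 1 TPM or more were kept and transformed as log2(TPM + 1), which understates changes of low genes. The groups were tested by limma 3.58.1 (R 4.3.3) with lmFit and a trended eBayes, two-sided and with no block. The procedure was run on simulated data with planted changes larger than that of any member, so smaller changes were not covered. Coordinates come from GENCODE 29 by symbol, promoters from RefSeq.

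Members and lists were chosen with earlier results of these data known. Named genes are the members, up to 3 called genes of each companion list with the largest change (otherwise the 2 with the smallest p), related pseudogene entries, and the 5 nearest profiles; not all are reported here. Alternatives covered pseudocounts, filters, scalings, the trend, a replicate block and leaving out each library; array weights, the crossed block and sums with pseudogenes were chosen after seeing the data.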

Additional observations from a re-analysis of the deposited data

How the results depend on the processing

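The count of members past the threshold was 0 in limma under every planned setting, and with array weights or pseudogene sums, except when 1 library was left out (0 to 2: CCT5 with CCT3 or with HSPE1), where the pair kept whole supplies all of the spread. Leaving out 1 library gave 286 to 2308 genes over all, a members' median from -0.18 to -0.078, and 0 to 1 prefoldin or CCT partner genes, 1 to 8 clients, 2 to 9 mitochondrial and 0 to 7 cytosolic chaperones, against 681, -0.10, 0, 4, 6 and 1 with all libraries. The log2 fold changes then ran from -0.24 to 0.055 for TCP1, -0.034 to 0.088 for CCT2, -0.074 to 0.19 for CCT4, -0.24 to 0.016 for CCT7 and -0.14 to 0.043 for CCT8. With no filter on low values 0 genes passed in limma (3970 at an unadjusted p under 0.05), and 0 in each companion list. Without the trend 385 genes passed, with 2 clients, 3 mitochondrial and 0 cytosolic chaperones. Without mitochondrial transcripts and the top entry 397 passed, with 3 mitochondrial chaperones and a members' median of -0.068. Median-ratio scaling gave a median of -0.068 and 0 cytosolic chaperones, quantile normalization a median of -0.035, 3 mitochondrial chaperones, 0.025 for CCT8 and a split of 383 higher and 395 lower genes, against 264 and 417. A minimum mean of 10 TPM gave 2 cytosolic chaperones. The cause of these shifts was not tested.

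The replicate numbers do not pair the libraries by the labels, and same-numbered libraries deviated oppositely (r = -0.28 across genes). With the replicate block 912 genes and 0 members passed. With the crossed pairing as block 2934 genes passed, of which 1 member (CCT5), 1 CCT-like gene, 1 partner, 8 clients and 6 cytosolic chaperones. Read depth is unknown, so its limit on these values cannot be given.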
